A study of Rattus norvegicus with 6 samples.

Results

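Regions of open chromatin that were called in every Med14 S983A library and in no WT library numbered 4998 of the 220487 merged regions outside the mitochondrial chromosome (2.27%). They were chosen by the peak lists deposited with each merged region: a member had to be on the lists of Med14 S983A CON, Ex-4 and FSK and on none of the WT lists. The choice therefore used the genotype contrast itself, and the difference between genotypes at these regions is a description that supports nothing further. They made up 5.02% of the 99613 regions called in all 3 Med14 S983A libraries. The mirror set, regions called in all 3 WT libraries and in no mutant library, was 2.44 times as large, with 12172 regions or 10.9% of the 112155 called in all 3 WT libraries. The WT libraries were deeper and had longer peak lists under each treatment, and the part of this in the ratio was not tested.

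ATAC-seq was performed on WT INS-1 cells, which derive from a rat insulinoma and serve as a beta cell model, and on their Med14 S983A derivative. The mutant cells were made by CRISPR-Cas9 knock-in of an alanine in place of Ser983 of Med14 and were grown from single sorted cells. Independent Med14 S983A lines exist in the study, and which of them gave these libraries was not stated, so differences of the mutation and of a clone cannot be told apart. All cells were moved to serum-free medium. CON cells had no further treatment, and the others received for 1 h either 10 nM Exendin-4 (Ex-4), a stable GLP-1 receptor agonist, or 10 µM forskolin (FSK), which activates adenylate cyclase. With 1 library for each of the 6 conditions, a difference describes those libraries only and could not be tested between conditions. No rn6 gene annotation or sequence was used here, so the regions are given by position, without genes or motifs, and the labelled beta cell type was not checked against marker genes.

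Transposase-accessible regions are mostly promoters and distal enhancers from which nucleosomes have been displaced by bound transcription factors. Mediator bridges such factors and RNA polymerase II, and Med14 is the scaffold that holds its modules together. cAMP produced downstream of the GLP-1 receptor activates PKA, which phosphorylates CREB, and CREB in turn acts at promoters and at enhancers that are often specific to the cell type. The study replaced Ser983 to ask what its phosphorylation does in this response.

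Values are FPKM, read counts scaled to the length of the region and to the reads in peaks of that library. Reads in peaks, recovered from the steps between the lowest values, ranged from about 134300000 in Med14 S983A CON to about 251200000 in WT FSK. In WT, 4995 of the 4998 regions were listed at 0 in every library, 1 had a value above 0 in WT CON, 0 in WT Ex-4 and 2 in WT FSK, all under 0.07 FPKM. A listed 0 marks a region missing from the peak list of that library and is no measurement of closed chromatin, so no fold change between genotypes is given. The depth was ample for a typical member, which held a median of 129 reads in Med14 S983A CON, a counting error of 8.82%, and of 143 reads in Ex-4 and FSK alike.

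Most of the mutant-only regions were weak and short. Their median level was 3.59 FPKM in Med14 S983A CON, 3.53 with Ex-4 and 3.21 with FSK, against 8.03, 8.05 and 7.42 FPKM for the 86576 regions called in all 6 libraries. Their median length was 277 bp against 584 bp. Some other regions not called in every library were alike, while those called in only 2 mutant libraries or only 1 were shorter, with medians of 177 and 125 bp. WT-only regions had medians of 3.65, 3.47 and 3.06 FPKM in WT CON, Ex-4 and FSK, and of 323 bp. Regions called in the 3 mutant libraries and in 1 or 2 WT libraries had 2.96 FPKM in Med14 S983A CON and 272 bp. In Med14 S983A CON the mutant-only regions ran from 0.230 to 58.7 FPKM with quartiles at 2.31 and 6.41 FPKM. At least 3 FPKM in each mutant library was reached by 2274 regions (45.5%), at least 10 FPKM by 501 and at least 30 FPKM by 20. The minority of strong regions stayed short. Among regions with a mean of 16 FPKM or more over the mutant libraries, the 249 mutant-only ones had a median length of 263 bp, while those called in all 6 libraries had 852 bp. The WT-only regions of that level in WT had 450.5 bp.

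The share of regions missed by the other genotype fell with the level. Of the regions called in all 3 mutant libraries, 9.43% were mutant-only below 2 FPKM, 9.15% between 2 and 4 FPKM, 5.09% between 4 and 8 FPKM, 3.24% between 8 and 16 FPKM and 1.01% at 16 FPKM or more. In WT the corresponding shares of WT-only regions were 21%, 20.6%, 10.6%, 6.18% and 2.17%. WT-only regions were thus the more frequent kind at every level, in libraries where WT was the deeper under each treatment. The part of depth in this was not tested.

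**Figure D1:**
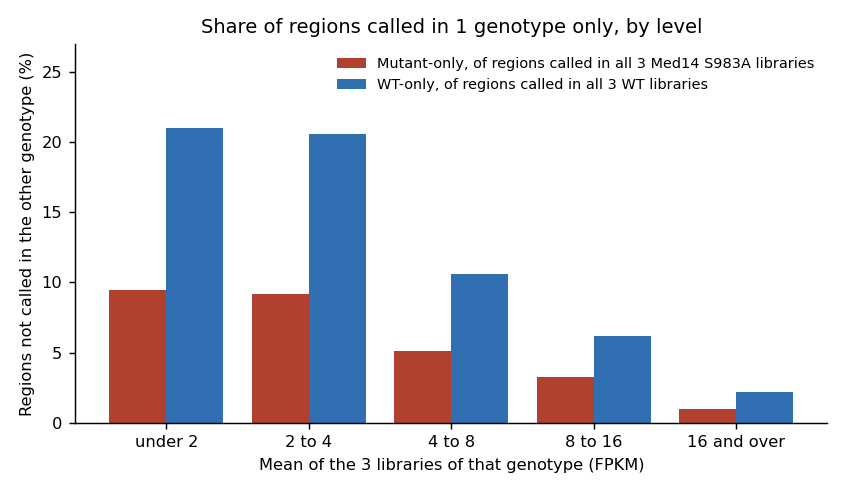
Share of regions called in 1 genotype only, by their mean FPKM over the 3 libraries of that genotype. Bars give mutant-only regions as a percent of those called in all 3 Med14 S983A libraries and WT-only regions as a percent of those called in all 3 WT libraries. Both shares were lowest at 16 FPKM and over, at 1.01% and 2.17%.

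To see where these regions lay relative to WT calls, each was set against WT-called regions of its own length class and treatment. In Med14 S983A CON, 4792 of the 4998 (95.9%) exceeded the lowest twentieth of WT CON calls and 2226 (44.5%, 95% exact binomial interval 43.2 to 45.9) exceeded their median. By construction WT CON calls are split evenly by that median, so there the members stood slightly below WT calls. At the lower limit they stood about level with them. In all 3 treatments at once, 1749 (35.0%) were above the median of WT calls and 858 (17.2%) above the upper quartile. The share of WT-called regions that pass all 3 limits at once was not computed. Regions just outside the rule had weak WT values. Those called in all 3 mutant libraries and in 1 WT library had a median of 1.62 FPKM in that library where it was WT CON (552 regions), 1.45 where it was WT Ex-4 (436) and 2.47 where it was WT FSK (2795). WT FSK was the deepest library, and without its peak list 7793 regions would meet the rule. On the mutant side, 5247 regions were called in 2 mutant libraries and no WT library, with a median length of 177 bp. The weakest members barely had signal in 1 library, as at chr12:9406256-9407162, which had 0.230 FPKM in Med14 S983A CON, 1.40 with Ex-4 and 0.806 with FSK.

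The strongest regions were ranked by their lowest value in any mutant library, a choice that favours regions of even level over the treatments. The first by its lowest mutant value, chr16:86632672-86632892, was at 58.7 FPKM in CON, where the 95% exact Poisson interval of the reads ran from 56.0 to 61.5. It was at 56.3 FPKM (53.7 to 58.9) under Ex-4 and at 48.8 FPKM (46.6 to 51.2) under FSK. It is a 220 bp region that lay 1.62 kb from a region called in all 6 libraries, with 36.3 FPKM in WT CON and 40.8 FPKM in Med14 S983A CON. A strong signal confined to the mutant lists thus stood beside one of like height in both genotypes.

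At chr12:17283050-17283791 the level was 47.5 FPKM in CON, 50.4 FPKM under Ex-4 and 47.9 FPKM under FSK. The nearest WT-called region, 1.81 kb away, behaved otherwise: it was called in 5 libraries, had 28.3 FPKM in WT FSK against 8.72 in WT CON, and was listed at 0 in Med14 S983A CON. At chr16:71585960-71586356 the member had 57.1, 53.8 and 46.0 FPKM in the same order of treatments. This region stood only 0.362 kb from one called in all 6 libraries, which had 69.8 FPKM in WT CON and 76.2 FPKM in Med14 S983A CON.

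The longest member of all, chr5:126052505-126054294, spanned 1789 bp merged from 5 source peaks and held 45.8 FPKM in CON, 45.7 FPKM under Ex-4 and 46.2 FPKM under FSK. The counting intervals of its 3 values overlapped and together ran from 44.9 to 47.0 FPKM. The nearest WT-called region, 6.81 kb away, was weak in WT, at 1.98 FPKM (CON), 1.83 FPKM (Ex-4) and 1.80 FPKM (FSK), and higher in Med14 S983A, with 8.57, 8.18 and 10.6 FPKM. This neighbour, called in all 6 libraries and itself no member, thus read higher in the mutant under each treatment.

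The others of the first 10 were chr17:9576155-9576861, chr6:136536275-136536997, chr16:20492608-20493513, chr9:45487074-45488119, chr20:7787887-7788563 and chr1:264063375-264063526. Their lowest value in any mutant library was between 33.5 and 40.7 FPKM. Beside chr16:20492608-20493513 the pattern of the genotypes was inverted at 3.02 kb, where a region had WT values of 15.7, 16.8 and 11.6 FPKM (CON, Ex-4, FSK) and was listed at 0 in every mutant library. Beside chr1:264063375-264063526, at 1.87 kb, a region called in all 6 libraries had 28.2 FPKM in WT CON and 46.3 FPKM in Med14 S983A CON.

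**Figure D2:**
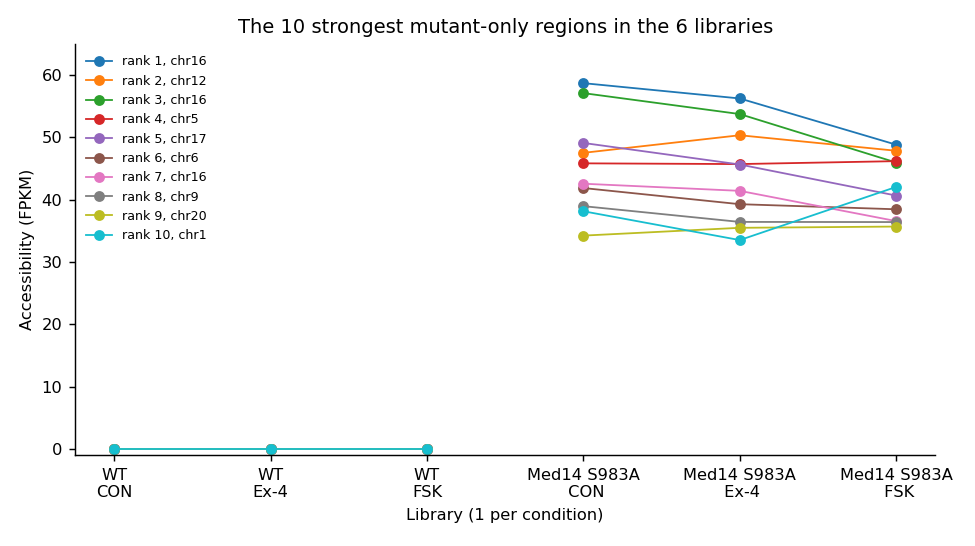
FPKM of the 10 mutant-only regions with the highest value in their lowest mutant library, in each of the 6 libraries (1 per condition), with lines joining libraries of a genotype. All WT points are at a listed 0, which marks absence from that library's peak list, and the Med14 S983A points lie between 33.5 and 58.7 FPKM.

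Levels varied across treatments about as much as at other regions. The highest of the mutant values was less than 2 times the lowest in 4306 members (86.2%), against 85.5% of all regions called in the 3 mutant libraries and 86.7% of those called in all 6. The median ratio of highest to lowest was 1.40, against 1.32 and 1.30. CON was the highest of the mutant libraries in 41.1% of members and in 46.7% of regions called in all 6 libraries, Ex-4 in 30.4% and 23.4%, and FSK in 28.4% and 29.9%. Which library is highest depends on the scaling of the libraries. The log2 values had a Pearson correlation across members of 0.95 between CON and Ex-4, 0.87 between CON and FSK and 0.90 between Ex-4 and FSK, a description over 4998 regions that share libraries and lengths.

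The response of these regions to cAMP signaling in the mutant was compared next. The rule did not use this contrast, but it required a call in every mutant library and absence from the WT FSK list. The 2795 regions that the WT FSK list alone kept out had medians of 2.92 FPKM in Med14 S983A CON and 4.34 FPKM with FSK. The part of this exclusion in the shares below was not tested. Changes were differences of log2(FPKM + 0.5), which compresses them at weak regions, over the 4974 members with a mean of at least 1 FPKM in the mutant libraries, and a region counted as raised or lowered at a 2-fold difference. FSK raised 139 members (2.79%) and lowered 157 (3.16%). Over all regions called in the 3 mutant libraries, FSK raised 5.35% and lowered 4.21%, and over those called in all 6 libraries it raised 4.58% and lowered 4.31%. The median change with FSK was -0.13 for the members and -0.12 for regions called in all 6 libraries. Centring each library on the regions called in all 6, a shift of -0.11 in FSK against CON, gave 186 raised and 101 lowered members, so that raised members went from 47.0% to 64.8% of those changed. The corresponding shares in regions called in all 6 libraries were 51.5% and 65.2%.

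Ex-4 changed few members. It raised 37 (0.744%) and lowered 8 (0.161%), where 0.785% and 0.079% of all regions called in the 3 mutant libraries, and 0.635% and 0.0501% of those called in all 6, were raised and lowered. The median change was -0.014. The shares raised and lowered by FSK were both below those of shared regions among weak members. All members are off the WT FSK list and all shared regions are on it, and the part of this in the gap was not tested. Between 1 and 3 FPKM, 2.62% of members against 5.94% of regions called in all 6 libraries were raised, and between 3 and 10 FPKM 2.87% against 5.77%, whereas at 10 FPKM and over it was 3.10% of 645 members against 2.91%. In the same classes 3.39% against 7.62%, 3.13% against 5.41% and 2.48% against 1.93% were lowered.

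**Figure D3:**
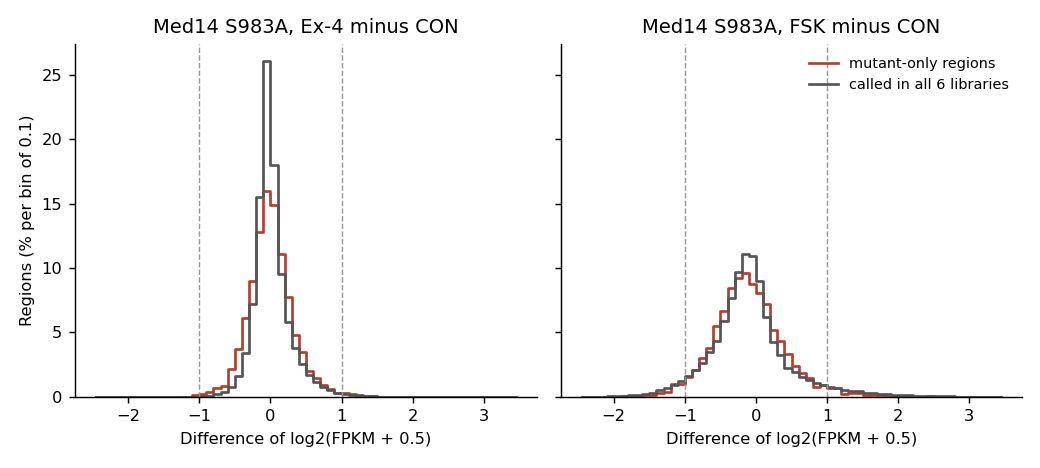
Distribution of the change with Ex-4 (left) and FSK (right) in Med14 S983A cells, as the difference of log2(FPKM + 0.5) from CON, for mutant-only regions and for regions called in all 6 libraries with a mean of at least 1 FPKM in the mutant libraries. Dashed lines mark 2-fold differences, which 139 mutant-only regions passed upward and 157 downward with FSK.

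In CON, the median level of raised members was below that of all members, 3.59 FPKM, and that of lowered members was above it. The 139 raised members had median values of 1.84, 3.05 and 5.54 FPKM in CON, Ex-4 and FSK, and 126 of them had an Ex-4 value between the others. The 157 lowered members had medians of 4.65, 3.74 and 1.65 FPKM, with Ex-4 between the others in 137. These members were chosen for a difference between FSK and CON, which by itself favours an Ex-4 value between them. The same choice favours a low CON value in raised members and a high one in lowered members. Both stimuli were set against the same CON library. Among responsive regions called in all 6 libraries, Ex-4 lay between the others in 97.4% of those raised and 90.7% of those lowered.

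Among members with a mean of at least 3 FPKM, the largest rise with FSK was at chr1:98502674-98503197. Its level was 0.655 FPKM in CON, with an exact 95% Poisson interval of 0.479 to 0.873, then 3.12 FPKM (2.74 to 3.54) under Ex-4 and 11.4 FPKM (10.7 to 12.1) under FSK, a difference of 3.36 on the log2 scale. None of the intervals overlap, and the nearest WT-called region, 4.74 kb away, showed no such rise in either genotype: it had 13.3 FPKM in WT CON and 11.8 in WT FSK, and 9.10 and 9.25 FPKM in the mutant.

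The second, chr2:257474407-257474963, stood at 3.44 FPKM in CON, 8.20 FPKM under Ex-4 and 34.3 FPKM under FSK. A region 1.16 kb from it was called in both FSK libraries only, at 1.26 FPKM in WT and 9.91 FPKM in Med14 S983A. The neighbour was thus on the FSK list of each genotype and on no other list. The third, chr12:44381130-44382006, with 0.901, 4.18 and 10.5 FPKM, likewise stood 5.08 kb from a region called in both FSK libraries only, with 1.69 FPKM in WT and 5.51 FPKM in the mutant.

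The fourth was chr5:158809110-158809622, with 1.16, 4.10 and 10.1 FPKM, and the fifth chr16:83259962-83260891, with 2.60, 8.31 and 16.2 FPKM. Near each of them the closest WT-called region was listed at 0 in WT CON and WT Ex-4 and had a value in WT FSK, 1.34 and 1.82 FPKM in turn. Of the 5 regions with the largest rise under FSK, 4 therefore had a nearest WT-called region whose only WT value above 0 was in FSK. The same held for 966 of all 4998 members (19.3%), for 40 of the 139 raised members and for 19 of the 157 lowered ones, and 23.6% of all WT-called regions had such values. The largest rises with Ex-4 were in the same regions except chr2:257474407-257474963, joined by chr11:71913889-71914362, which went from 13.0 FPKM in CON to 37.2 FPKM with Ex-4 and 61.1 with FSK. That last region is among the strongest members under FSK. A region called in all 6 libraries, 1.16 kb away, rose in the mutant from 32.8 to 52.8 FPKM with FSK and had 35.8 and 31.6 FPKM in WT.

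In the same level range, the largest fall with FSK was at chr1:57818328-57818891, from 17.5 FPKM in CON to 11.8 FPKM under Ex-4 and 3.75 FPKM under FSK. The CON and FSK values had exact 95% Poisson intervals of 16.5 to 18.4 and 3.36 to 4.17 FPKM. The neighbour called in all 6 libraries 0.578 kb away fell far less, from 17.4 to 13.8 FPKM in the mutant and from 15.0 to 11.5 FPKM in WT. The other large falls were at chr9:15125047-15126053, chr16:67501697-67502187, chr13:4816250-4816942 and chr8:67219533-67219937, where FSK left between 0.212 and 0.283 of the CON value.

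Regions called in all 6 libraries within 10 kb of a responsive member were then read in WT cells. Neither choice had used the size of their WT change with FSK, though both had used the WT CON and WT FSK lists. Around the 139 raised members, 171 such regions had a median FSK change in WT of 0.021, and 11.1% were raised 2-fold. Around the 157 lowered members, 197 regions had a median of -0.29 and 2.54% were raised. Around members that changed less than 2-fold, the median over 5564 regions was -0.12 with 5.09% raised, and over all regions called in all 6 libraries it was -0.13 with 5.94% raised. Lowered 2-fold in WT were 0.585% near raised members, 7.11% near lowered members and 3.66% of all regions called in all 6 libraries. Relative to all these regions, neighbours in WT thus leaned the same way as the mutant-only region, by small amounts. The median near raised members was itself close to no change, and no interval was computed. In counts, 19 shared regions near raised members and 5 near lowered members rose 2-fold in WT, and 1 and 14 in turn fell 2-fold.

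Mutant-only regions mostly lay among chromatin that WT cells open as well. The nearest WT-called region was a median of 2605 bp away, with quartiles at 734 and 7332.5 bp, and 1474 members (29.5%, 95% exact binomial interval 28.2 to 30.8) had one within 1 kb. For regions called in all 6 libraries, 33.2% had another WT-called region within 1 kb. For WT-only regions, the nearest mutant-called region was within 1 kb in 15.8% and a median of 5516.5 bp away. The WT lists held 131253, 132608 and 169448 regions and the mutant lists 119021, 129417 and 144166 (CON, Ex-4, FSK), and the part of this gap in the distances was not tested.

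The strong members were the closest to WT-called chromatin. A WT-called region lay within 1 kb of 342 of the 645 members at 10 FPKM and over (53.0%), of 30.4% of those between 3 and 10 FPKM and of 21.3% of those under 3 FPKM. Among regions called in all 6 libraries the same classes gave 36.8%, 31.2% and 29.1%. Where a member had a WT-called region within 1 kb, that neighbour was called in all 6 libraries in 1020 of 1474 cases (69.2%). Only 99 members were more than 50 kb from any WT-called region, the farthest being chrX:4358283-4358416 at 251 kb, a weak region of 2.86, 2.96 and 2.03 FPKM in the mutant libraries. Within 50 kb on either side, members had a median of 5 regions called in all 6 libraries, as did those regions themselves, whereas WT-only regions had 3.

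Shared regions next to mutant-only regions had higher values in the mutant. The 1134 regions called in all 6 libraries within 1 kb of a member differed between Med14 S983A CON and WT CON by a median log2 value of 0.29 (95% order-statistic interval over regions 0.26 to 0.32, which does not cover library error), 0.26 between the Ex-4 libraries and 0.29 between the FSK libraries. Of them 171 (15.1%) were at least 2-fold higher in the mutant and 46 (4.06%) at least 2-fold lower. Among all regions called in all 6 libraries, 4.9% were higher and 10.5% lower, and the median was 0.051. These regions are not members, although they come from the same libraries. Their values rest on the same peak lists that chose the members, so they are not independent of the choice. How far peak calling near a member enters the difference was not tested.

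The difference was smaller at every greater distance, though not in steady order. It was 0.13 between 1 and 2 kb, 0.066 between 2 and 5 kb, 0.12 between 5 and 10 kb, 0.096 between 10 and 50 kb and 0.020 beyond 100 kb. Around WT-only regions it had the opposite sign, with -0.16 within 1 kb and 0.10 beyond 100 kb. Within 10 kb of a member the median was 0.15 over 5899 regions, and centring the libraries moved it to 0.27 and that of all shared regions to 0.17. With chromosomes 5 and 9 left out it was 0.25 within 1 kb and 0.11 within 10 kb, against 0.033 for all shared regions of the remaining chromosomes.

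**Figure D4:**
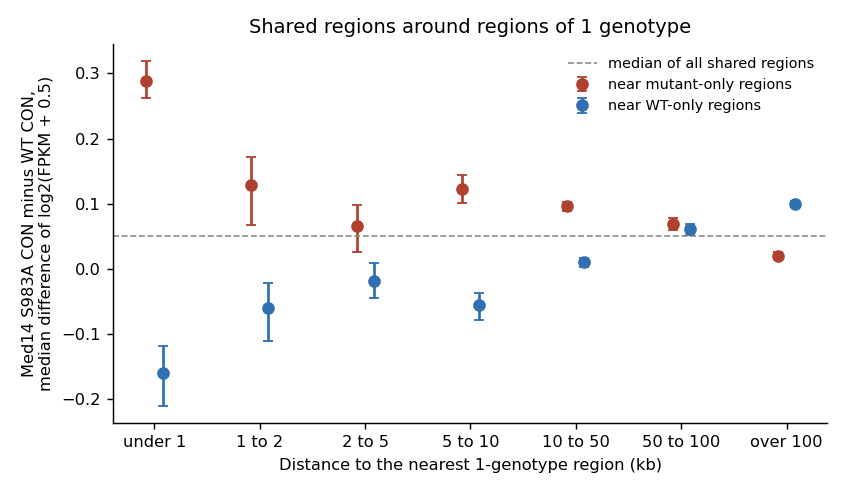
Median difference of log2(FPKM + 0.5) between Med14 S983A CON and WT CON over regions called in all 6 libraries, by distance to the nearest mutant-only or WT-only region. Bars are 95% order-statistic intervals over regions and not library error, and the dashed line is the median of all shared regions, 0.051. Within 1 kb the medians were 0.29 and -0.16.

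Members occurred on every chromosome, at unequal shares of the regions called in all 3 mutant libraries. Chromosome 9 had the highest share with 380 of 4349 (8.74%), followed by chromosome 5 with 453 of 6696 (6.77%), chromosome 20 with 6.59% and chromosome 16 with 6.15%. The X chromosome had the lowest share, 88 of 2788 (3.16%). On chromosomes 9 and 5, regions called in all 6 libraries were also higher in the mutant, with median differences in CON of 0.30 and 0.21, while on chromosomes 20 and 16 these were 0.0094 and 0.076. WT-only regions were most frequent on chromosome 15, at 17.9% of the regions called in all 3 WT libraries.

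**Figure D5:**
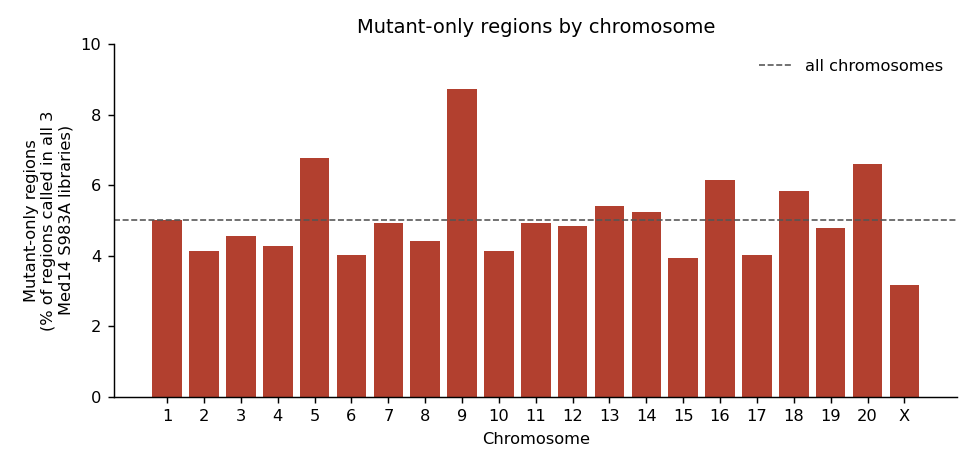
Mutant-only regions as a percent of the regions called in all 3 Med14 S983A libraries, by chromosome. The dashed line is the share over all chromosomes, 5.02%, and chromosome 9 stands highest at 8.74%.

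On a finer scale, 523 windows of 5 Mb held at least 50 regions called in all 3 mutant libraries, with a median member share of 4.43% and quartiles of 3.10% and 5.99%. In 25 windows the share was at least 10%, 8 of them on chromosome 9 and 2 on chromosome 5. These windows held 604 members, or 12.1% of all, in 4.76% of the regions called in all 3 mutant libraries. The window from 95 to 100 Mb of chromosome 9 had 52 members among 288 regions (18.1%) with a median difference of shared regions of 0.88, and that from 165 to 170 Mb of chromosome 5 had 66 among 437 (15.1%) with 0.97. Elsewhere a high share came without such a shift. The window from 50 to 55 Mb of chromosome 20, at the top with 16 of 86 (18.6%), had a median difference of 0.028 in shared regions and 16.5% WT-only regions. The median of shared regions was at least 0.5 in 11 of the 25 windows, and in 15 windows of all 523. The part of such segments in the member counts was not tested.

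Most members stood apart from each other. Taken in genome order, 4324 members stood alone between regions of other call patterns and 674 (13.5%) were in unbroken runs of 2 to 5, a share that was not set against any expected from position. Of the WT-only regions, a set 2.44 times as large, 25.6% were in runs of up to 20. The longest run, 5 members within 2.79 kb at chr2:1312329-1315119, spanned 2.32 to 5.70 FPKM in CON, 2.24 to 4.72 FPKM under Ex-4 and 2.91 to 5.11 FPKM under FSK. The regions on both of its flanks, 172 and 95 bp away, were also on mutant lists only, so the patch without a WT call was wider than the run.

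There were 5 runs of 4. The strongest, at chr10:107733381-107735516, covered 2.14 kb with values in CON of 7.75, 24.7, 8.16 and 9.26 FPKM, 7.12, 23.1, 6.55 and 8.50 FPKM with Ex-4, and 5.75, 26.2, 7.85 and 10.3 FPKM with FSK. All of its regions kept their order of height under each stimulus except the lowest pair in Ex-4, and the nearest region to the left, 5213 bp away, was called in all 6 libraries at 22.9 FPKM in WT CON and 24.2 FPKM in Med14 S983A CON. In the run at chr4:150081388-150109692, the first region went from 2.11 FPKM in CON to 9.38 FPKM with FSK and the second from 1.88 to 4.33 FPKM, while the others had 2.39 and 1.62 FPKM in CON and 3.89 and 1.86 FPKM with FSK. The run at chr8:104073442-104108071 had between 3.67 and 9.51 FPKM in CON and began 370 bp from a region called in all 6 libraries that had 4.84 FPKM in WT CON and 12.7 FPKM in Med14 S983A CON. The runs at chr9:114252367-114276257 and chr13:37622816-37674500 were weaker, with no value above 4.32 FPKM in any mutant library.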

How the data were processed

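The 6 ATAC-seq libraries (CON, Ex-4 and FSK in each genotype, 1 per condition) were grouped by their labels. The authors used Trim Galore for trimming, bwa mem for alignment to rn6 and samtools to remove mitochondrial reads, duplicates and reads of low mapping quality, then called peaks per library with macs2 and merged them. The deposited FPKM were computed with HOMER per library over the merged regions, relative to reads in that library's peaks, so a weak region missed by a library's list reads as 0. The study's software list names versions of macs2, samtools and HOMER, and its methods describe a shift of fragments after peak calling. Versions of Trim Galore and bwa, pooling of replicates and whether shifted fragments entered these values are not given in the sources used here. Coordinates are those of the table, where length is end minus start.

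From these values, members were taken by the deposited peak lists, leaving out 3 regions on the mitochondrial chromosome. Reads were recovered from steps in FPKM multiplied by length. The 318 to 1520 low values examined in a library were all whole within 0.15 of a read. WT CON, Ex-4 and FSK held about 151500000, 158800000 and 251200000 reads in peaks, and Med14 S983A about 134300000, 147100000 and 163000000. Poisson intervals cover counting error only. Binomial intervals are for a share and order-statistic intervals for a median, both taken over regions, and neither gives the spread of single regions. None covers library error. Responses used log2(FPKM + 0.5), a mutant mean of 1 FPKM or more and a 2-fold rule. WT calling levels used 10 length classes. With 1 library per condition no p-value was computed. Regions named are the 10 with the highest value in their lowest mutant library, the 5 with the largest rise and the 5 with the largest fall under FSK and the 5 with the largest rise under Ex-4 (mean of at least 3 FPKM), the longest region and the longest runs, with ties kept. The weakest member and the member farthest from a WT-called region were added after their values were seen. Members and comparisons were chosen with earlier results of these data known. Pseudocounts, filters, centring, fold rules and distances were varied. Calculations were tested on simulated data. The work used scipy 1.17.1, pandas 2.3.3, numpy 2.4.6 and matplotlib 3.10.9 under Python 3.11.15.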

Additional observations from a re-analysis of the deposited data

How the results depend on the processing

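No paired analysis was possible because every group is a single library, and for the same reason no replicate could be left out. Genes, promoter classes, motifs and sequence were not analysed here. The number of mutant-only regions, 4998, was 7793 without the WT FSK list and 2274 with at least 3 FPKM in each mutant library. It stayed within 1.5 times under the other definitions. Members raised and lowered by FSK, 139 and 157, were 85 and 87 with a mean of at least 3 FPKM, 401 and 719 at 1.5-fold and 15 and 2 at 4-fold. The lowered count was 259 and 87 with pseudocounts of 0.1 and 1, and 101 with centred libraries. The median FSK change, -0.13, was -0.14 and -0.11 with pseudocounts of 0.1 and 1, -0.15 with a mean of at least 3 FPKM and -0.019 with centred libraries, so it was near 0 relative to the regions called in all 6 libraries. Members raised and lowered by Ex-4, 37 and 8, were 75 and 28 with a pseudocount of 0.1, 18 and 0 with 1, 19 and 1 with a mean of at least 3 FPKM, 207 and 130 at 1.5-fold and 0 and 0 at 4-fold. The median Ex-4 change was -0.026 with a mean of at least 3 FPKM and otherwise stayed within its interval over regions. Counts of Ex-4 responses therefore depend on the pseudocount and the fold, and only their small size held under each of these settings. Shares over all regions called in the 3 mutant libraries were computed for the main setting and for centred libraries only. The other counts, with FSK and Ex-4 alike, therefore describe the members alone and have no background beside them.

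The median genotype difference of shared regions within 10 kb of members, 0.15, was 0.16 within 5 kb, 0.11 within 50 kb, 0.27 with centred libraries, where all shared regions moved to 0.17, and 0.090 with centred chromosomes, where they were at 0. Settings chosen after seeing the data gave 0.11 without chromosomes 5 and 9, 0.29 within 1 kb, 0.24 within 1 kb with centred chromosomes and 0.25 within 1 kb without chromosomes 5 and 9. The difference exceeded that of all shared regions in each of these. Centring the libraries moves every shared region by the same amount, so that setting could not have changed the excess. The share of members within 1 kb of a WT-called region, 29.5%, was 22.6% for regions called in all 3 WT libraries, 24.8% for those called in WT CON, 6.98% at 200 bp and 65.6% at 5 kb. The share above the WT calling level, 35.0% at the median, was 60.2% at the lower quartile and 17.2% at the upper quartile. The last shares move by construction of the limit. Depth limits the weakest members, and library error is unknown for all of them.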

Other observations

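Of the 4998 mutant-only regions, 3 have a WT value above 0 although no WT list holds them. The region chr8:130596691-130596922 had 0.069 FPKM in WT FSK and between 2.23 and 2.71 FPKM in the mutant libraries, chr12:10023000-10023896 had 0.027 FPKM in WT FSK and between 2.02 and 3.23 FPKM in the mutant, and chr20:30383341-30383607 had 0.025 FPKM in WT CON and between 1.76 and 2.26 FPKM in the mutant. They were singled out after their values were seen.

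A further 2795 regions were called in all 3 mutant libraries and, in WT, with FSK only. Their median level was 2.47 FPKM in WT FSK, and 2.92 FPKM in Med14 S983A CON, 3.31 with Ex-4 and 4.34 with FSK. Their median length, 254 bp, was near the 277 bp of the mutant-only regions.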
